A study of Mus musculus with 6 samples.

Results

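The genes described here encode the subunits and assembly factors of the proteasome in mouse hearts. They are the protein-coding genes of the deposited count table whose symbols begin with Psma to Psmg followed by a digit, together with Pomp. This rule found 52 of the 56748 genes in the table and used no measured value. Of these, 50 are subunits, alternative subunits, caps or assembly factors, and 2 (Psmc3ip and Psme3ip1) share the prefix but encode partner proteins rather than subunits. RNA was sequenced from 3 Pontin cTG and 3 WT littermate hearts, and both groups had received Ang-II at 1.5 mg/kg BW/day through an implanted mini-osmotic pump for 14 days, so no unstressed heart was compared here. The transgene of Pontin cTG mice is a human Pontin cDNA with a flag tag, driven in cardiomyocytes by the mouse αMHC promoter, and the mice were bred on C57Bl/6. The mice were males, 10 weeks old when they were put on Ang-II. How many founder lines gave the transgenic mice is not given in the sources used here. Whole-heart RNA holds other cells beside cardiomyocytes, so fewer cells of a type and less RNA per cell cannot be told apart in these libraries.

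The proteasome is the protease that degrades proteins tagged with ubiquitin. Its barrel, the 20S core, is a stack of alpha and beta rings with the peptide-cutting sites inside, and it is opened by caps: the 19S particle, which recognises and unfolds tagged proteins with its ring of ATPases, or the 11S and PA200 activators, which need neither ubiquitin nor ATP. Interferon-γ induces alternative catalytic beta subunits that form the immunoproteasome, together with the 11S subunits Psme1 and Psme2. In the heart the proteasome takes part in the turnover of sarcomere proteins and in the remodelling that follows pressure load.

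Of the 52 genes, 50 passed the filter on low counts. Psma8, the testis form of an alpha subunit, had 3 to 8 reads per library and Psmb11, the thymus-specific beta subunit, had 0 reads in every library, and neither was tested. No proteasome gene passed an adjusted p of 0.05 in the edgeR quasi-likelihood test, in which 0% of the 13888 genes tested did, and the adjusted p of all 50 was 0.999. At an unadjusted p under 0.05, 2 proteasome genes were higher in Pontin cTG hearts, Psme2 and Psmg1, beside 1.02% of all genes tested. None was lower at that p, beside 1.03% of all genes. DESeq2 gave the same 2 genes as higher at an unadjusted p under 0.05, beside 0.792% of the 13886 genes it tested. At an adjusted p under 0.05 it gave 0 proteasome genes and 1 of all genes. The fitted log2 fold change was above 0 for 39 of the 50 and below 0 for 11, whereas 50.2% of all genes tested were above 0. The median log2 fold change over the 50 was 0.12, and over all genes tested it was 0.0013.

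In 8 of the 50 genes all Pontin cTG libraries lay above all WT libraries, beside 4.7% of all genes tested. These were Psmb3, Psmb6, Psmc3, Psmc5, Psmd10, Psme2, Psmg1 and Pomp. Psmd5 was the 1 gene with all Pontin cTG libraries below all WT libraries, beside 3.63% of all genes. The count of 8 became 12 with no filter on low counts and 7 with library size alone. No share over all genes was computed under those settings, so these counts cannot be compared. The count also moved when 1 library was left out. It came to 28 without Pontin cTG replicate 1 (11% of all genes tested then), to 15 without WT replicate 2 (8.4%) and to 14 without WT replicate 3 (9.62%). The plot of fold changes by role shows how these differences were spread over the parts of the particle.

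**Figure D1:**
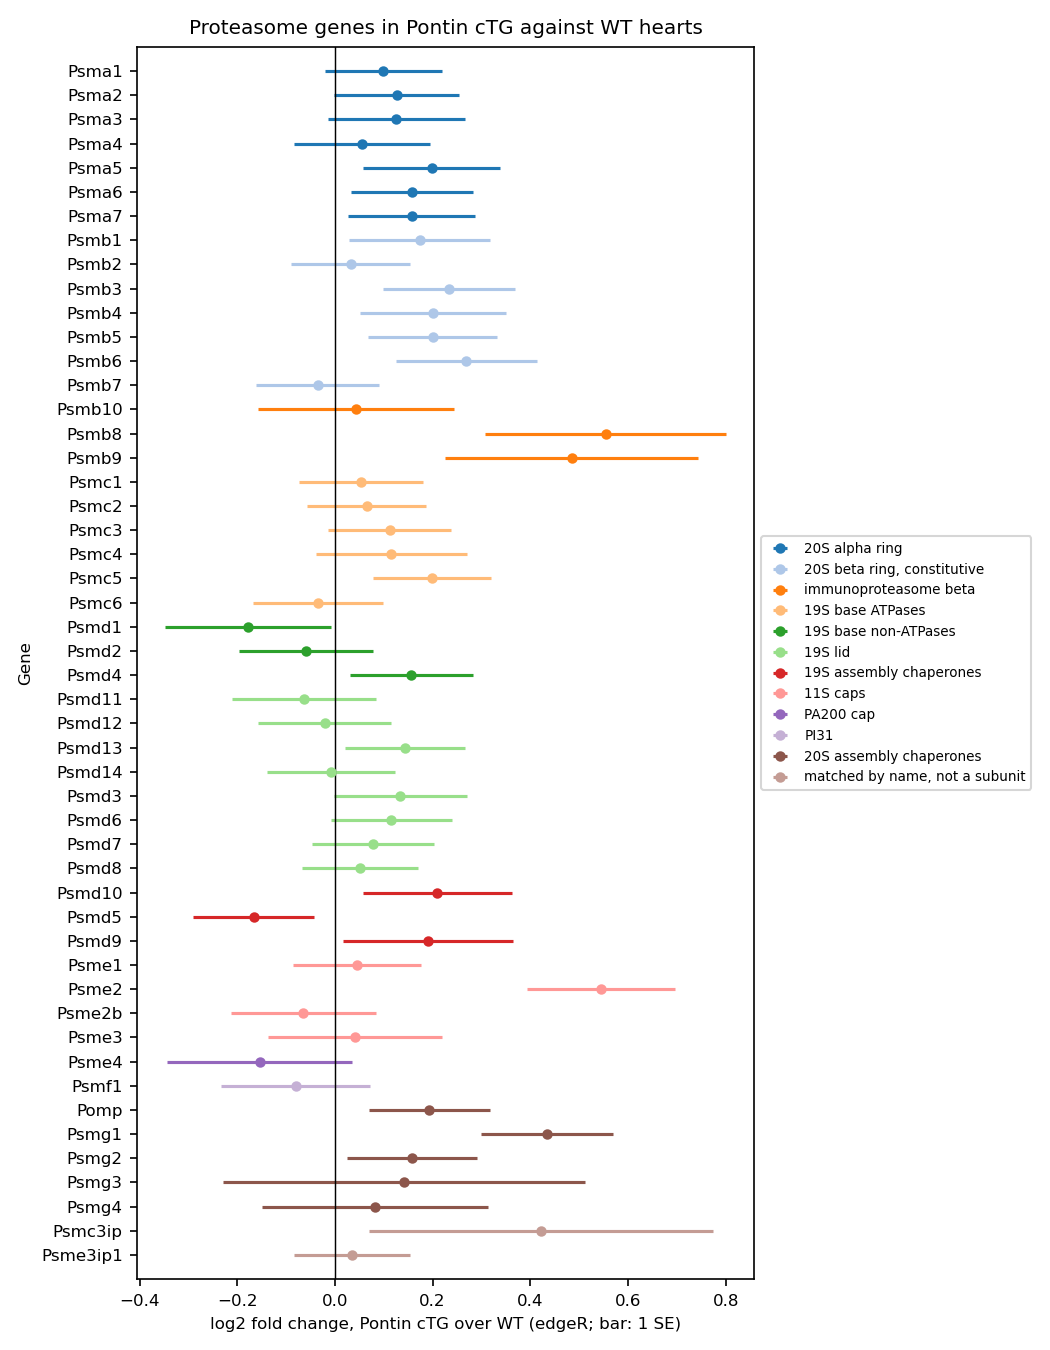
The log2 fold change of each of the 50 tested proteasome genes (x axis, Pontin cTG over WT, edgeR) is plotted by gene (y axis), coloured by its part of the particle, with a bar of 1 SE and n = 3 hearts per group. All 7 alpha ring genes lie right of 0, and Psmb8, Psme2, Psmb9 and Psmg1 lie farthest to the right.

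Pontin cTG replicate 2 stood apart from the other 5 on the first principal component (score 50.9 against -23.1 to 16.2, 48.6% of the variance), and it gave the highest normalised count for 29 of the 50 proteasome genes, whereas Pontin cTG replicate 1 did so for 3. The median of the 50 genes was 101%, 115% and 109% of their WT mean in Pontin cTG replicates 1, 2 and 3, and the median over all genes tested lay between 99.5% and 100% in each of them. With replicate 2 left out, 37 of the 50 genes still had a log2 fold change above 0 (48.8% of all genes), the same 2 genes were higher at an unadjusted p under 0.05 (2.05% of all genes), none was lower (2.85%), and none passed an adjusted p of 0.05 (0.0215% of all genes, which was 3 genes). The median log2 fold change was then 0.068. Pontin itself, encoded by Ruvbl1, had normalised counts of 216, 221 and 217 in WT and 250, 250 and 240 in Pontin cTG hearts (log2 fold change 0.18, SE 0.12). The reads of a human cDNA may align to the mouse gene only in part, so this count is no full measure of the transgene.

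Among the alpha subunits, which form the outer rings and hold the gate of the barrel, all 7 were above 0, from 0.056 for Psma4 to 0.20 for Psma5 on the log2 scale, with a median of 0.13. None passed the test, and in none did the groups separate. Psma5 had normalised counts of 542, 610 and 504 in WT and 557, 712 and 631 in Pontin cTG hearts, so replicate 1 lay within the WT range and the others above it. Psma4, at 1272, 1305 and 1199 in WT against 1153, 1500 and 1271, had its highest and its lowest library both among the Pontin cTG hearts. Its log2 fold change was -0.054 without Pontin cTG replicate 2.

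Of the 7 constitutive beta subunits, 6 were above 0 and the median was 0.20, which was 0.071 without Pontin cTG replicate 2. Psmb6, which carries the caspase-like site, was highest at 0.27 (SE 0.14), with counts of 1068, 1168 and 1165 in WT and 1219, 1598 and 1279 in Pontin cTG hearts. Psmb3, a beta subunit without a catalytic site, had 725, 749 and 723 in WT and 788, 998 and 798 in Pontin cTG hearts (log2 fold change 0.23, SE 0.14). Both genes separated the groups with no overlap, by margins of 51.7 and 38.6 normalised counts between the highest WT and the lowest Pontin cTG library. Psmb5, the chymotrypsin-like subunit, missed that by 1 library, since Pontin cTG replicate 1 (915) lay below WT replicate 3 (933). Psmb7, which carries the trypsin-like site, stood at -0.036 (SE 0.13), with 1239, 1223 and 1316 in WT and 1181, 1165 and 1338 in Pontin cTG hearts. Its sign turned when Pontin cTG replicate 2 (0.0015) or WT replicate 3 (0.0052) was left out.

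Summed over both rings, the 14 constitutive core genes reached 100%, 121% and 110% of the WT mean in Pontin cTG replicates 1, 2 and 3, and the WT libraries lay between 98.8% and 102%. The 17 subunits of the 19S particle, summed alike, reached 101%, 102% and 105%, with WT between 97.0% and 102%. The ratio of the summed 19S counts to the summed core counts was 159%, 164% and 164% in WT and 163%, 138% and 156% in Pontin cTG hearts. Only replicates 2 and 3 lay below the WT range, and replicate 1 lay within it. The plot of summed levels shows these values beside those of the smaller groups.

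**Figure D2:**
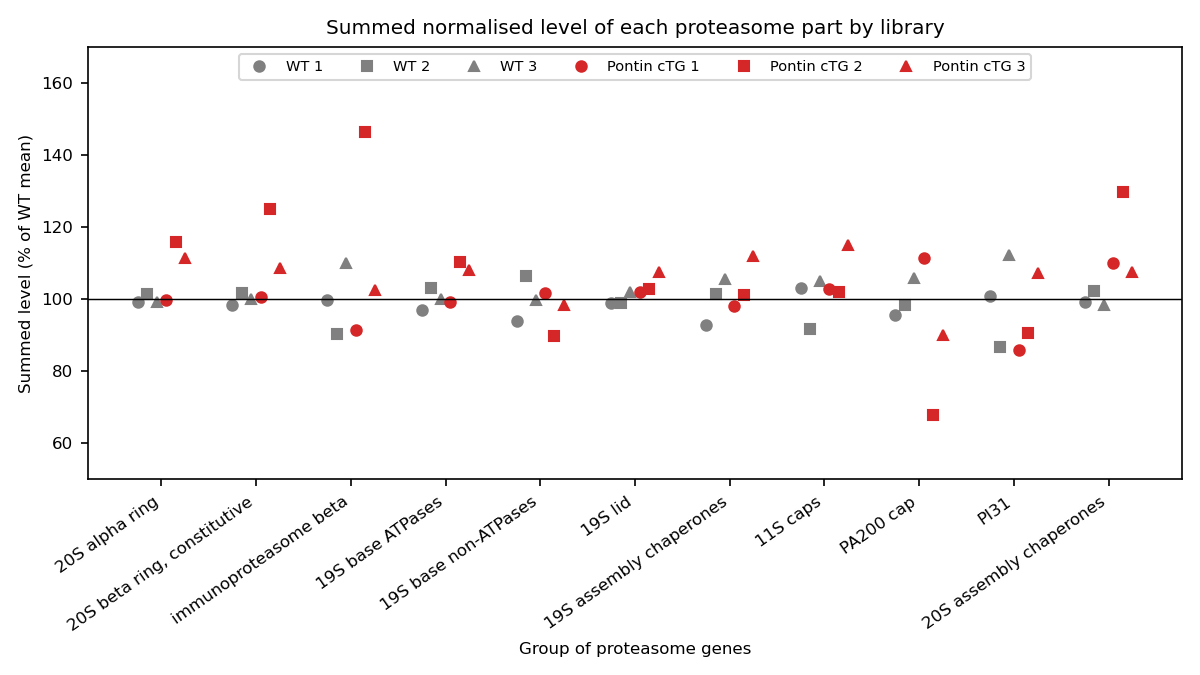
The summed normalised level of each group of proteasome genes (y axis, percent of the WT mean) is plotted for 11 groups (x axis), with grey for WT and red for Pontin cTG libraries and circles, squares and triangles for replicates 1, 2 and 3. Pontin cTG replicate 2 is highest for the alpha ring, the beta ring, the immunoproteasome subunits (146%), the 19S base ATPases (110%) and the 20S assembly chaperones (130%). It is lowest for the 19S base non-ATPases (89.8%) and PA200 (67.9%).

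The immunoproteasome subunits Psmb8, Psmb9 and Psmb10 replace Psmb5, Psmb6 and Psmb7 in the inner rings. Psmb8 had the highest log2 fold change of all proteasome genes, 0.55 (SE 0.25, unadjusted p = 0.051 in the edgeR fit), and did not pass the test. Its normalised counts were 100, 127 and 142 in WT and 119, 213 and 209 in Pontin cTG hearts. Psmb9 had 79.3, 111 and 92.8 in WT and 91.8, 176 and 127 in Pontin cTG hearts (log2 fold change 0.48, SE 0.26). For both genes Pontin cTG replicates 2 and 3 lay above every WT library and replicate 1 lay within the WT range. Without replicate 1, Psmb8 stood at 0.79 (unadjusted p = 0.0041, adjusted p = 0.879 in edgeR), and without replicate 2 at 0.42. Psmb9 stood at 0.70 without replicate 1 and at 0.22 without replicate 2.

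Psmb10 gave no such pattern. It had 659, 522 and 690 in WT and 558, 842 and 527 in Pontin cTG hearts (log2 fold change 0.044, SE 0.20), with replicate 2 alone above the WT range. Without that library it was -0.20, a change of sign. Psmb8 and Psmb9 lie close together in the class II region of the major histocompatibility complex, at chr17:34197721-34201454 on the plus strand and chr17:34181987-34187764 on the minus strand (GRCm38), 9956 bases apart, whereas Psmb10 lies at chr8:105935735-105938444.

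Per length of gene, the immunoproteasome forms of the first 2 sites were rare in all hearts. Psmb8 stood at 3.19%, 3.73% and 4.04% of Psmb5 in WT and at 3.46%, 5.01% and 5.43% in Pontin cTG hearts, a log2 difference of 0.32. Psmb9 stood at 3.80%, 4.86% and 4.07% of Psmb6 in WT and at 3.85%, 5.65% and 5.09% in Pontin cTG hearts, a log2 difference of 0.19. Per length in the deposited table, Psmb10 was nearly as abundant as Psmb7, at 107%, 85.6% and 105% in WT and 94.9%, 145% and 79.0% in Pontin cTG hearts. The groups overlapped in all 3 ratios. Gene lengths are those of the deposited table, which count every annotated exon, so a level per length depends on which exons the heart uses. The near parity of Psmb10 and Psmb7 rests on lengths of 1705 and 3421 bases. Their protein-coding transcripts hold 1212 and 1061 distinct windows of 100 bases. Before division by length, the WT libraries had 659, 522 and 690 normalised counts of Psmb10 and 1239, 1223 and 1316 of Psmb7.

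The 11S activator that pairs with the immunoproteasome is a ring of Psme1 and Psme2. Psme2 was the proteasome gene with the smallest p, at a log2 fold change of 0.54 (SE 0.15, unadjusted p = 0.0057, adjusted p = 0.999 in edgeR). Its normalised counts were 265, 264 and 234 in WT and 313, 430 and 369 in Pontin cTG hearts, with no overlap. The log2 fold change lay between 0.43 and 0.66 when any 1 library was left out, the lowest without replicate 2 and the highest without replicate 1 of the transgenic hearts. Psme1, its partner, had 1319, 1173 and 1354 in WT and 1212, 1341 and 1415 in Pontin cTG hearts (log2 fold change 0.045, SE 0.13), so its groups overlapped. The ratio of Psme2 to Psme1 counts was 20.1%, 22.5% and 17.3% in WT and 25.9%, 32.1% and 26.1% in Pontin cTG hearts, also without overlap. The pair lies on chromosome 14, Psme1 at chr14:55578123-55581529 on the plus strand and Psme2 at chr14:55587441-55591113 on the minus strand, with 5911 bases between them.

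The count of Psme2 depends on how reads were shared with Psme2b. Psme2b, at chr11:48945354-48946190, is a copy without introns whose coding sequence matches that of Psme2 at 712 of 717 bases (99.3%), with a longest identical run of 311 bases. Of the 100-base windows in the transcripts of Psme2, 40.3% occur letter for letter in Psme2b, and 52% of those of Psme2b occur in Psme2. Coding bases 454 to 543 of both genes (GENCODE M21) are shown because they hold 3 of the 5 differences, with the differing bases in capitals.
Psme2: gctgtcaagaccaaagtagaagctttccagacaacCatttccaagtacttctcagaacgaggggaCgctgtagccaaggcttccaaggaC
Psme2b: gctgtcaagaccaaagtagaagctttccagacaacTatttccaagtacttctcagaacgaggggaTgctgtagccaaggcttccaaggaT
A read that covers none of the differing bases cannot be assigned to one gene of the pair by its coding sequence. Psme2b had 217, 224 and 227 normalised counts in WT and 178, 233 and 228 in Pontin cTG hearts (log2 fold change -0.065, SE 0.15). Added together, the pair gave 482, 488 and 461 in WT and 491, 663 and 597 in Pontin cTG hearts, a log2 fold change of 0.29 (SE 0.14, unadjusted p = 0.067 in edgeR). The sum was still higher in all 3 Pontin cTG libraries than in any WT library, but by 3.14 counts for the nearest pair, and its p was no longer under 0.05. Which of the 2 genes the shared reads came from was not tested. After this pair, the largest shares of windows found in other genes were 27.5% for Psma5, 22.2% for Psmb5, 20% for Psma3, 18% for Psmb3 and 17% for Psmg3. The effect of such sharing on their counts was not tested.

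**Figure D3:**
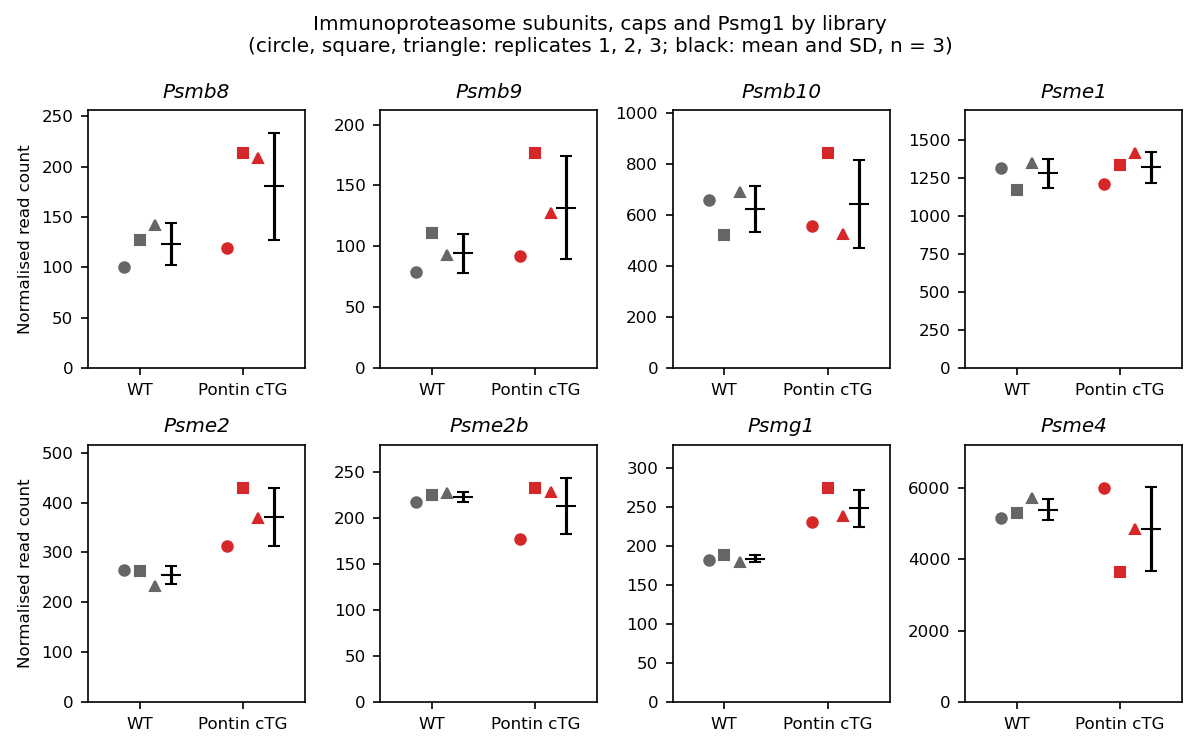
Normalised read counts (y axis, from 0) of Psmb8, Psmb9, Psmb10, Psme1, Psme2, Psme2b, Psmg1 and Psme4 are plotted for the WT (grey) and Pontin cTG (red) libraries (x axis), with circles, squares and triangles for replicates 1, 2 and 3 and the mean ± SD (n = 3) in black. The groups do not overlap for Psme2 and Psmg1 and overlap for the other 6 genes.

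The other caps gave smaller differences. Psme3, which forms the nuclear 11S ring, had 932, 775 and 971 in WT and 1022, 700 and 1035 in Pontin cTG hearts (log2 fold change 0.042, SE 0.18), with the lowest and the highest library both transgenic. Psme4 encodes PA200, a single large activator linked to chromatin and to the breakdown of acetylated histones, and was the most strongly counted proteasome gene. It had 5141, 5300 and 5707 in WT and 6004, 3657 and 4853 in Pontin cTG hearts (log2 fold change -0.15, SE 0.19). Replicate 1 lay above every WT library and replicates 2 and 3 below, and without replicate 2 the value was 0.012. Psmf1 encodes PI31, a proteasome-binding protein first described as an inhibitor, and stood at -0.080 (SE 0.15) with overlapping groups.

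In the base of the 19S particle, 5 of the 6 ATPase genes were above 0 and the median was 0.088 (0.045 without Pontin cTG replicate 2), from -0.035 for Psmc6 to 0.20 for Psmc5. Psmc5 had 1155, 1149 and 1191 in WT and 1263, 1417 and 1329 in Pontin cTG hearts, and Psmc3 had 2350, 2447 and 2435 against 2465, 2707 and 2641. Both separated the groups without overlap, Psmc3 by 18.7 counts, and neither passed the test (log2 fold changes 0.20 and 0.11, SE 0.12 and 0.13). Of the 3 non-ATPase base genes, Psmd1, the scaffold that holds the ubiquitin receptor Adrm1, was lowest at -0.18 (SE 0.17), with 1729, 1819 and 1697 in WT and 1783, 1187 and 1668 in Pontin cTG hearts. Without replicate 2 the value was -0.019. Psmd4, a ubiquitin receptor, stood at 0.16 (SE 0.13).

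The 8 lid genes, which include the deubiquitinase Psmd14 and its partners, had a median of 0.065, with 5 above and 3 below 0. They ran from -0.064 for Psmd11 to 0.14 for Psmd13, a scaffold subunit like Psmd11, and no gene of the lid separated the groups. Psmd14 itself had 561, 709 and 627 in WT and 608, 660 and 617 in Pontin cTG hearts (log2 fold change -0.0085, SE 0.13), and its value ran from -0.084 to 0.081 with WT replicate 1 or WT replicate 2 left out.

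Assembly of the 20S core needs the paired chaperones Psmg1 with Psmg2 and Psmg3 with Psmg4, and the maturation factor Pomp. All 5 were above 0, with a median of 0.16, which was 0.069 without Pontin cTG replicate 2. Psmg1 had 183, 188 and 180 normalised counts in WT and 231, 275 and 238 in Pontin cTG hearts (log2 fold change 0.43, SE 0.14, unadjusted p = 0.011, adjusted p = 0.999 in edgeR), without overlap. The WT libraries spanned 8.48 counts, and the gap between the groups was 42.9. Its value lay between 0.35 and 0.49 when any 1 library was left out. Psmg2, the protein that pairs with Psmg1, had 295, 312 and 281 in WT and 299.7, 369 and 320.5 in Pontin cTG hearts (log2 fold change 0.16, SE 0.13), with overlap. Pomp had 912, 909 and 903 in WT and 1011, 1143 and 959 in Pontin cTG hearts, without overlap (log2 fold change 0.19, SE 0.12). Psmg3 and Psmg4 had few reads, with normalised counts of 31.2 to 61.7 and 70.2 to 104, and their groups overlapped. Psmg3 stood at 0.14 (SE 0.37), and at -0.13, -0.012 and -0.017 with Pontin cTG replicate 2, WT replicate 1 or WT replicate 3 left out. Psmg4 stood at 0.082 (SE 0.23), and at -0.14 with Pontin cTG replicate 2 left out.

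Assembly of the 19S base needs Psmd5, Psmd9 and Psmd10. Psmd5 was lower in all Pontin cTG libraries, at 286, 267 and 287 in WT and 254, 235 and 261 in Pontin cTG hearts (log2 fold change -0.17, SE 0.12). Psmd10, also known as gankyrin, was higher in all of them, at 138, 142 and 131 in WT and 149, 149 and 177 in Pontin cTG hearts (log2 fold change 0.21, SE 0.15). Neither passed the test, and the gaps between the groups were 6.23 and 6.52 counts. Of the 2 genes that only share the prefix, Psmc3ip, a meiotic recombination factor, had 14.5 to 32.2 counts (log2 fold change 0.42, SE 0.35) and Psme3ip1, a binding partner of Psme3, stood at 0.034 (SE 0.12).

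The values also moved with gene length, a property looked at after the values were seen. Across the 50 genes, the rank correlation of gene length with the difference from the WT mean was -0.42 in Pontin cTG replicate 2, -0.19 in replicate 3 and -0.053 in replicate 1, where the genes of 1 library share its depth and RNA. Over all genes tested it was -0.24, -0.25 and -0.074. The 10 shortest proteasome genes (555 to 1705 bases, among them Psmb5, Psmg1 and Psmc5) had a median of 124% of the WT mean in replicate 2, and the 10 longest (4595 to 8382 bases, among them Psme4, Psmd1 and Psmd5) had 97.4%. In replicate 1 the values were 101.8% and 101.5%, and in replicate 3 they were 114% and 106%. The part of gene length in the differences between the groups was not tested.

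**Figure D4:**
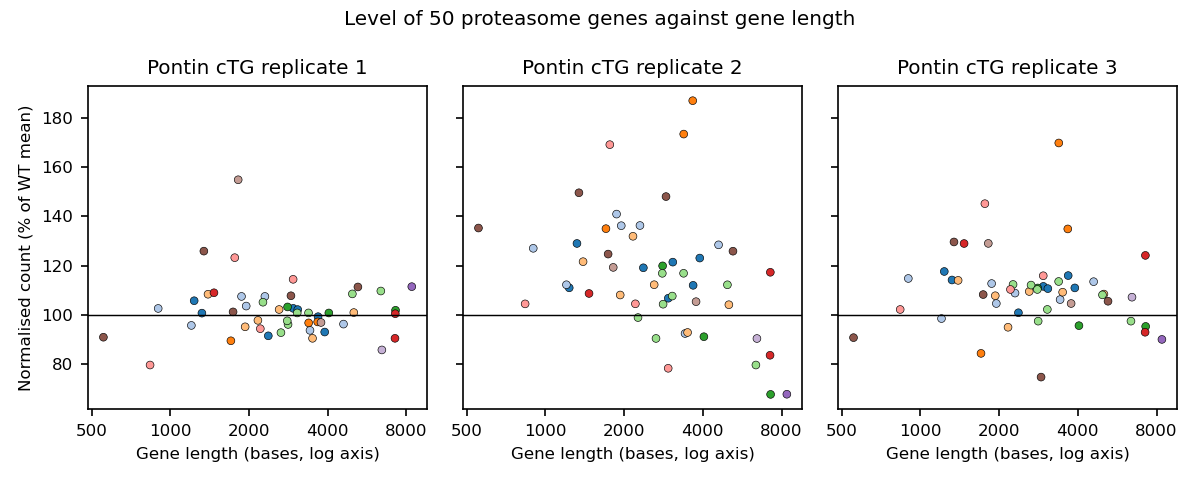
The normalised count of each of the 50 tested proteasome genes (y axis, percent of its WT mean) is plotted against gene length (x axis, bases, log axis) in the 3 Pontin cTG libraries, with colours for the parts of the particle as in the plot of fold changes. In replicate 2 the 10 shortest genes have a median of 124% and the longest gene, Psme4, lies at 67.9%.

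Promoters are shown for Psme2, the gene with the smallest p, and for its partner Psme1. Each line runs 5′ to 3′ on the strand of the gene from 250 bases before its RefSeq start to 30 bases from it (RefSeq, GRCm38.p6), with capitals for a match to the IRF motif, GAAA and GAAA again with 2 bases of any kind between, on either strand. The windows are chr14:55578244-55578523 (plus strand) and chr14:55591072-55591351 (minus).
Psme1: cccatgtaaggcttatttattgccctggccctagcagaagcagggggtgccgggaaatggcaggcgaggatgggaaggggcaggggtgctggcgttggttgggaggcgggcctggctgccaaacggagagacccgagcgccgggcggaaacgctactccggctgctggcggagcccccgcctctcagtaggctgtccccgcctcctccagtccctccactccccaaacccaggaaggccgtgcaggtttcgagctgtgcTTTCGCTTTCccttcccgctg
Psme2: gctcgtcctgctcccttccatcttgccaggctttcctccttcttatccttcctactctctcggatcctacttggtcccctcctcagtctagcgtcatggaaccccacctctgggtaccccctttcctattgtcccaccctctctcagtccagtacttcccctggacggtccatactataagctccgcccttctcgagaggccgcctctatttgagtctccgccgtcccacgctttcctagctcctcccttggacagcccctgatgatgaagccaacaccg
Psme1 held the IRF motif on the opposite strand, beginning at base 10 of the transcript, and the window of Psme2 did not hold it. Motifs were searched on both strands, after the values were seen, in 300-base windows that run 20 bases farther than those printed, and 44 of the 52 genes had such a window. The IRF motif stood in 5 of the 44 (11.4%) and in 3.99% of the 27025 genes of the promoter table. Of the 5 interferon-linked genes Psmb8, Psmb9, Psmb10, Psme1 and Psme2, it stood in 1. TGACNNNGC, the letters bound by NRF1 and NRF2, which control proteasome genes, stood in 6 of the 44 (13.6%) and in 14% of all genes, and CCAAT stood in 16 (36.4%) and in 41.1%. A match is a description of the letters and no evidence of binding.

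The genes around the proteasome in its pathway were compared by the same fit. In 10 lists of related genes and cell type markers, 100 of 105 distinct genes were tested, 0 passed an adjusted p of 0.05 in edgeR, and 3 were under an unadjusted p of 0.05, all higher in Pontin cTG hearts without overlap, of which 2 are described. Over all genes, 285 of 13888 were under that p (1.02% higher and 1.03% lower), and 4.7% were higher without overlap. Sem1, the small lid subunit without the Psm prefix, had 842, 768 and 864 normalised counts in WT and 891, 1137 and 1053 in Pontin cTG hearts (log2 fold change 0.32, SE 0.14). H2-K1, a class I heavy chain that presents the peptides made by the proteasome, had 1930, 2215 and 2384 in WT and 2421, 3180 and 2778 in Pontin cTG hearts (log2 fold change 0.36, SE 0.16).

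None of the listed genes that follow was under an unadjusted p of 0.05. Erap1, which trims peptides for class I, had 596, 588 and 644 in WT and 515, 438 and 543 in Pontin cTG hearts, all lower (log2 fold change -0.29, SE 0.13). Ngly1, the deglycosylase that activates NRF1, was also below all WT libraries (log2 fold change -0.17, SE 0.12). The log2 fold changes were -0.25 for Ube3c, a ubiquitin ligase that works on the proteasome, -0.40 for Uba6, a ubiquitin-activating enzyme, and 0.0066 for the segregase Vcp.

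Among the factors that control proteasome genes, Nfe2l1, which encodes NRF1, had a log2 fold change of -0.013 (SE 0.16), and the median over the 5 regulators was -0.013. The median was -0.016 over the 15 proteasome-associated factors found in the table and 0.037 over the 11 genes of ubiquitin and its activation. Over the 12 genes of class I antigen processing it was 0.21, with 9 above and 3 below 0. Tap1, a peptide transporter subunit encoded beside Psmb9, had 195, 187 and 164 in WT and 157, 262 and 258 in Pontin cTG hearts (log2 fold change 0.31, SE 0.21). As with Psmb8 and Psmb9, replicates 2 and 3 lay above the WT libraries and replicate 1 did not.

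Interferon-response genes and markers of other cells are given beside the immunoproteasome values. Of 14 interferon-response genes, 11 were above 0 and 3 below (median 0.13), 0 were under an unadjusted p of 0.05, and their summed level was 89.3%, 141% and 104% of the WT mean in Pontin cTG replicates 1, 2 and 3, with WT from 93.6% to 111%. The median of this list was -0.086 without Pontin cTG replicate 2 and 0.015 with limma-voom, so its sign rested on that library. The summed level of the 19 leukocyte markers was 90.4%, 105% and 68.3%, with WT from 80.5% to 133%. Of these, 14 passed the filter on low counts, with a median log2 fold change of -0.29 (4 above and 10 below 0), and none had 0 reads in every library. This median was 0.097 without WT replicate 2, a change of sign, and -0.44 and -0.13 without Pontin cTG replicates 2 and 3. Cd3e, Cd8a, Nkg7, Cd79a and Ms4a1, markers of T, natural killer and B cells, did not pass the filter, with at most 13 reads in any library. Cd4, a further T cell marker of the list, passed it with 10.1 to 19.5 normalised counts. The endothelial markers summed to 94.9%, 129% and 86.1% and the fibroblast markers to 88.0%, 122% and 75.7%, with WT from 99.5% to 101% and from 78.0% to 133%. In these lists the genes with the smallest p were Cxcl9 (log2 fold change 0.36) and Cxcl10 (-0.87) for interferon, Cd4 (0.39) and Csf1r (-0.39) for leukocytes, Egfl7 (0.38) and Kdr (-0.082) for endothelial cells, and Tcf21 (0.22) and Pdgfra (-0.41) for fibroblasts. For cardiomyocytes they were Tnni3 (0.30) and Ryr2 (-0.34), and for red cells Hbb-bs (0.069) and Hba-a2 (-0.15).

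The medians were 0.12 over the 7 endothelial, -0.014 over the 8 fibroblast, -0.037 over the 9 cardiomyocyte and 0.0045 over the 5 red cell genes, and cardiomyocyte markers were present in all libraries, at 94.6% to 108% of the WT mean. The endothelial median was -0.087 without Pontin cTG replicate 2 and -0.074 with limma-voom, and the fibroblast median ran from -0.22 (Pontin cTG replicate 2 left out) to 0.20 (WT replicate 2 left out). Of the 10 list medians, that of class I antigen processing alone kept its sign under all 15 alternative settings. The part of these cells in the proteasome values was not tested.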

How the data were processed

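Hearts of 3 Pontin cTG and 3 WT mice after Ang-II were compared, with groups taken from the labels. The authors deposited raw counts per gene as whole numbers, unnormalised. The submitters' processing notes name fastp, HISAT2, featureCounts, DESeq2 and GRCm39, while the methods of the study name Trimmomatic, STAR, mm10 and Gencode M25. Which of them made the counts was not settled, and strand use is not given in the sources used here. Totals ran from 12436822 to 13194038 counts in WT and from 14584102 to 16888124 in Pontin cTG libraries, with 23.8% to 26.7% from mitochondrial genes. 0 sample columns were unmatched.

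Genes were filtered with filterByExpr (minimum count 10), scaled by TMM and tested by quasi-likelihood in edgeR 4.0.16 and R 4.3.3 with Benjamini-Hochberg adjustment over 13888 genes (common biological coefficient of variation 0.197). The SE is the log2 fold change divided by the square root of F. Normalised counts are counts per TMM-scaled library size, brought to a common library size. An exact permutation test of 3 against 3 cannot give a p under 0.1. Nothing in the labels says how the mice were drawn, while the study states that mice were chosen at random for its experimental groups. Its examples are treatments, Ang-II and tamoxifen, whereas the groups compared here differ by genotype and all received Ang-II. Each p-value sets the group difference against the spread between these samples, moderated over all genes tested, and covers these samples only. The lowest chi-square per gene between any 2 libraries was 5.54, so none was a repeat. DESeq2 1.42.0, limma 3.58.1 and 15 alternatives in all were run, and adding Psme2b to Psme2 was chosen after seeing the data. Fits were tested on simulated data.

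Members and lists were chosen with earlier results of these data known. The genes named were those under an unadjusted p of 0.05, those whose groups did not overlap, the lowest and highest of each part, all immunoproteasome and cap genes, and in each related list the gene with the smallest p in each direction. Psmb5, Psmd14, Psmg2, Psmg3, Nfe2l1 and Tap1 were chosen after their values were seen. Positions are from GENCODE M21 on GRCm38. Paaf1 was not matched by symbol. The remaining gene that rule selects, and 1 motif, are not reported here.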

Additional observations from a re-analysis of the deposited data

How the results depend on the processing

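No proteasome gene passed an adjusted p of 0.05 under any of 15 alternative settings, and the lowest adjusted p of a proteasome gene among them was 0.844 (limma-voom). Over all genes, 3 passed with no filter on low counts, 3 with limma-voom, 3 without Pontin cTG replicate 2 and 1 with DESeq2. Psme2 and Psmg1 were under an unadjusted p of 0.05 in each of the 15 settings. Only the sum of Psme2 and Psme2b, chosen after seeing the data, took the value of Psme2 past that p (log2 fold change 0.29). The count of proteasome genes higher at an unadjusted p under 0.05 was 4 with no filter on low counts and 4 with the replicate block, each time with Psmb8 and Psmb9, and 2 to 4 with any 1 library left out. Of all genes tested, 0.905% were higher at that p with no filter and 1.27% with the replicate block, beside 1.02% in the main fit. With a library left out the share was 0.333% (without WT replicate 1) to 2.05% (without Pontin cTG replicate 1). Counts of genes whose groups did not overlap ran from 10 to 28 (higher) and from 1 to 4 (lower) with a library left out. The higher share over all genes was 8.4%, 9.62% and 11% without WT replicate 2, WT replicate 3 or Pontin cTG replicate 1, beside 4.7% with all libraries. With the other libraries left out, and for the lower counts, no share over all genes was computed, so those counts cannot be compared. Deviations from the group mean correlated at 0.077, 0.43 and 0.19 between the WT and Pontin cTG libraries of replicates 1, 2 and 3. Only WT replicate 2 (16.2) and Pontin cTG replicate 2 (50.9) had scores above 0 on the first principal component. Whether the replicate numbers pair the samples was not tested. Among related genes 3 were under an unadjusted p of 0.05 in the main fit. The count was 5 with DESeq2, with library size alone and with protein-coding genes only. It was 7 with no filter, 9 with the replicate block and 10 with limma-voom. Among the fits that left out a library it was lowest at 1 (WT replicate 2) and highest at 11 (Pontin cTG replicate 1). All genes tested gave 285 of 13888 in the main fit, 219 of 13886 with DESeq2 and 305 of 13888 with library size alone. They gave 258 of 12452 with protein-coding genes only and 478 of 25636 with no filter. Of 13888, they gave 499 with the replicate block and 810 with limma-voom. For those 2 left-out libraries they gave 186 of 14234 and 636 of 14211. Whether related genes moved more than all genes was not tested. With limma-voom and sample quality weights, the median log2 fold change was 0.088 for the constitutive beta ring and 0.043 for the non-ATPase base genes, and signs turned for Psma4 (-0.051), Psmb10 (-0.21), Psmd11 (0.023), Psme1 (-0.032), Psme4 (0.029), Psmg4 (-0.099) and Psme3ip1 (-0.011). With a library left out, the beta ring median ran from 0.071 to 0.28 and that of the 19S chaperones from 0.042 (without WT replicate 1) to 0.26. Signs turned in the same way for Psma4 (-0.054 to 0.15), Psmb7 (-0.10 to 0.0052), Psmb10 (-0.20 to 0.17), Psmc6 (-0.12 to 0.024), Psmd11 (-0.17 to 0.052), Psme1 (-0.016 to 0.11), Psme2b (-0.13 to 0.057), Psme3 (-0.052 to 0.20), Psme4 (-0.33 to 0.012), Psmf1 (-0.18 to 0.020), Psmg3 (-0.13 to 0.54), Psmg4 (-0.14 to 0.19) and Psmd14 (-0.084 to 0.081), and for Psmb2, Psmc4 and Psmd12. The cause was not tested. Reads were fewest for Psmg3, Psmg4 and Psmc3ip among the 50 proteasome genes tested, and the SE was largest for Psmg3 (0.37) and Psmc3ip (0.35).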
